A study of Arabidopsis thaliana with 12 samples.

Results

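FLORE (AT1G69572) is a long non-coding RNA of Arabidopsis thaliana, and its course over the day was followed in leaves on 12 one-colour arrays. It is 1 of 5080 genes or transcript units with probes, isoforms of a name taken as one. Its probes were chosen by name: 3 of the 15013 probes carry the transcript name AT1G69572.1. No other isoform name of FLORE was found on the array, although the gene table lists 3 RefSeq transcripts of the locus. The plants were 30-day-old wild type of the Col-0 accession, raised under 8 h of light (145 µmol per m2 and second) and 16 h of dark, at 22 °C and a humidity of 65%. Each group held 2 arrays, with sample titles that read light for 0, 4 and 8 h and dark for 12, 16 and 20 h. All arrays share this genotype, and the labels name no agent. Continuous light is named in the series title, whereas the growth notes and sample titles name light and dark, and the state of the lamps during the later time points was not tested. The labels do not trace the replicates to separate plants. The p-values thus cover only how far replicate arrays differ, a spread that may be technical.

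FLORE is known as a natural antisense RNA of CDF5, a DOF-type transcription factor that delays flowering by holding down CONSTANS and FT. The RNA and the CDF5 messenger have been described as clock-controlled, opposite in phase and each lowering the other, with FLORE promoting flowering. In the gene table AT1G69572 lies wholly within the bounds of AT1G69570 (CDF5). None of the 9 genes of the CDF and photoperiodic flowering list (CDF5, CDF1, CDF2, CDF3, FKF1, GI, CO, FT and TSF) has a probe on the array, so the antisense partner was not measured. The strand and position of the FLORE probes were not analysed here, and a part of CDF5 RNA in their signal was not tested. The 8 leaf, root and flower marker genes chosen to check the tissue have no probes either.

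Levels are the log2 of the background-corrected signal minus the 75th percentile of each array, computed from those 2876 probes that every one of the 12 arrays marked as well above background, and a level of 0 equals that percentile. Per array, 3983 to 7832 probes were well above background. The highest number belongs to the second dark 16 h array, and the next highest array had 6186. The arrays of 0 h and 4 h lay on slide 1 and the 8 later arrays on slide 2. For 0 h and 4 h against any of the 4 later times, time and slide cannot be told apart.

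FLORE was high at 16 h, 20 h and 0 h, lower at 4 h and lowest at 8 h, and at 12 h it stood between its 4 h and 8 h levels. By its brightest probe, CUST_9013, the levels were 2.84 and 2.86 at 0 h, 1.88 and 1.90 at 4 h, and -1.40 and -1.39 at 8 h. They were 0.09 and 0.22 at 12 h, 3.05 and 3.19 at 16 h, and 3.36 and 3.46 at 20 h. The 2 arrays of a time point lay close together, and no time point overlapped with another. In whole leaves, fewer cells that express FLORE and less FLORE RNA per cell cannot be told apart. Before scaling, the signal of this probe was 2490 and 2638 intensity units at 20 h, against 88 and 150 at 8 h. The 2 signals at 8 h differed before scaling, and after it the SD of their log2 level was 0.0018, against a median SD over all transcripts of 0.22 at 8 h. The SD of FLORE lay between 0.0018 and 0.10 over the 6 time points, and the median SD over all transcripts between 0.157 and 0.411.

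All 3 probes were well above background on all 12 arrays, and none of their spots was saturated or marked as an outlier. At 8 h, the dimmest time point, the signal of CUST_9013 was still 23.3 and 37.8 times the dimmest signal that the same array marked as well above background. The low point of FLORE was therefore measured and is not a bound.

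**Figure D1:**
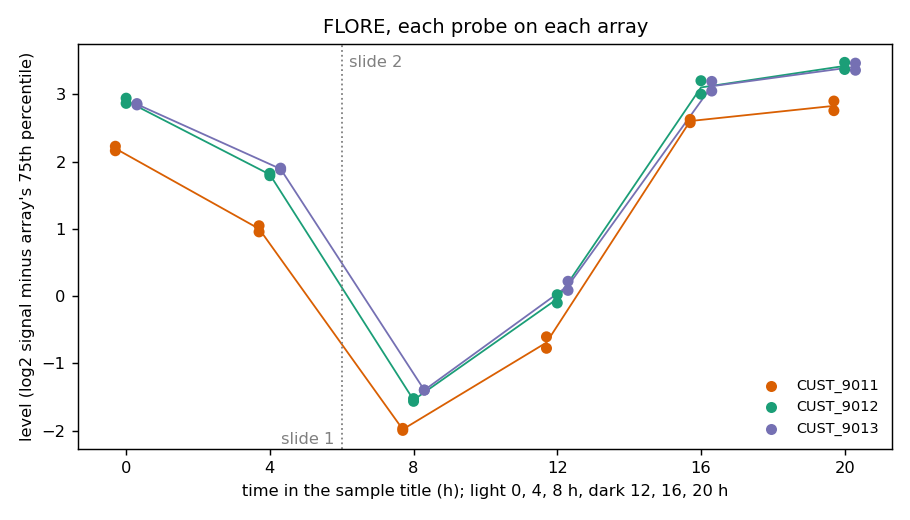
Level of FLORE (log2 signal minus the 75th percentile of the array) on each of the 12 arrays against the hour in the sample title, with a line through the mean of each time point for each of 3 probes; the dotted line separates the arrays of slide 1 from those of slide 2. All 3 probes are lowest at 8 h and highest at 20 h, with CUST_9011 dimmer than both others at every time point.

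The first comparison asked whether FLORE varied over the 6 time points. It was 28.0-fold higher at 20 h than at 8 h, a difference in level of 4.81 ± 0.17 (SE, log2), and both of these time points lie on slide 2. limma's moderated F test over all 3302 transcripts tested gave an adjusted p = 1.1e-05 (Benjamini-Hochberg), and 14.7% of all transcripts passed that test. The difference of 20 h minus 8 h alone had an adjusted p = 3.6e-06, with 1.85% of transcripts called higher. The range between the highest and lowest means put FLORE 22nd of the 3302 transcripts. Among the 356 tested transcripts of loci listed as lncRNA or ncRNA it came 2nd, after AT5G53048 with a range of 5.25. The median range was 1.38 over all transcripts and 1.04 over those 356. The F test call held within slide 2 alone, without both dark 16 h arrays and without each single array.

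Between consecutive time points FLORE fell steeply once and rose in 2 steps. From 4 h to 8 h it fell to -1.40, against 1.89 at 4 h, a log2 difference of -3.29 ± 0.17 or 9.75-fold (limma, adjusted p = 0.00018). Only 0.515% of transcripts were called lower in that step. This step spans both slides, and neither slide holds both of its time points.

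From 8 h to 12 h FLORE rose by 1.55 ± 0.17 (2.93-fold, limma adjusted p = 0.004), a step in which 2.09% of transcripts were called higher. Within slide 2 alone the same difference had an adjusted p = 0.065, and with scaling on all probes a difference of 1.74 had an adjusted p = 0.27. From 12 h to 16 h it rose by 2.97 ± 0.17 (7.81-fold, limma adjusted p = 7.7e-05), in which 6.15% of transcripts were called higher. Scaling mattered to that step: the median of all transcripts moved by 0.36 in it, and by -0.71 with scaling on all probes. With that scaling the rise of FLORE itself was 1.90. Relative to the median of all transcripts, FLORE rose by 2.60 under both scalings. Both subtract a constant from each array, so this match is fixed by construction. With quantile normalization the relative rise was 3.46.

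The remaining steps were small. From 0 h to 4 h the level of FLORE was lower by 0.96 on the log2 scale (-0.96 ± 0.17, interval -1.36 to -0.57 at 95%), with an adjusted p = 0.052 in limma. In a fit across the 6214 probes tested, the same step passed for all 3 FLORE probes, with adjusted p = 0.011 for CUST_9011, 0.017 for CUST_9012 and 0.026 for CUST_9013, a step called lower for 0.966% of those probes. Over the alternatives tried the adjusted p of this step ran from 0.00011 to 0.96, so the call depends on the setting. Of all transcripts, 0.454% were called lower in it.

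From 16 h to 20 h the difference was 0.29 ± 0.17 (interval -0.10 to 0.68, limma adjusted p = 0.27). It was 0.07 with quantile normalization and 1.26 with scaling on all probes. Relative to the median of all transcripts it was 0.68, both under the scaling used here and with scaling on all probes. That match is fixed by construction. With quantile normalization it was -0.24, so the direction of this relative difference depends on the scaling. In that step 2.76% of transcripts were called higher. Between the end and the start of the series, 20 h minus 0 h, the difference was 0.56 ± 0.17 (interval 0.16 to 0.95, adjusted p = 0.12), across the slides, and 1.03% of transcripts were called higher. Consecutive steps share the arrays of the time point between them and are not independent.

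From high to low the order of the means was 20, 16, 0, 4, 12 and 8 h. Neighbours in this order did not all pass an adjusted p of 0.05 in limma. The pair of 20 and 16 h and the pair of 4 and 0 h did not pass, as above. For 16 h minus 0 h the difference was 0.27 ± 0.17 (interval -0.13 to 0.66, limma adjusted p = 0.34, 4.42% called higher). FLORE was lower at 12 h than at 4 h by 1.74 on the log2 scale (-1.74 ± 0.17, adjusted p = 0.0014, 3.09% called lower). With scaling on all probes 16 h fell below 0 h, by 0.52 for CUST_9013, while 4, 12 and 8 h kept their places under each of the 5 scalings. For CUST_9011 alone 16 h stood above 20 h under 3 of the other scalings, by at most 0.07. Of the 15 pairs of time points 11 passed, 6 of them across slides.

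The pairs not yet described all passed. FLORE was higher at 16 h than at 8 h by 4.52 (adjusted p = 3.5e-06, 4.88% called higher) and at 20 h than at 12 h by 3.26 (adjusted p = 4.5e-05, 5.24% called higher). Both of these pairs lie within slide 2. Across the slides, it was lower at 8 h than at 0 h, with a difference of -4.25 (adjusted p = 7.1e-06, 1.03% called lower), and lower at 12 h than at 0 h, with -2.70 (adjusted p = 0.00012, 3.66% called lower). Against 4 h it was higher by 1.23 at 16 h (adjusted p = 0.0046, 7.57% called higher) and by 1.52 at 20 h (adjusted p = 0.003, 1.7% called higher). These adjusted p come from limma, and all of the differences share the SE of 0.17.

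**Figure D2:**
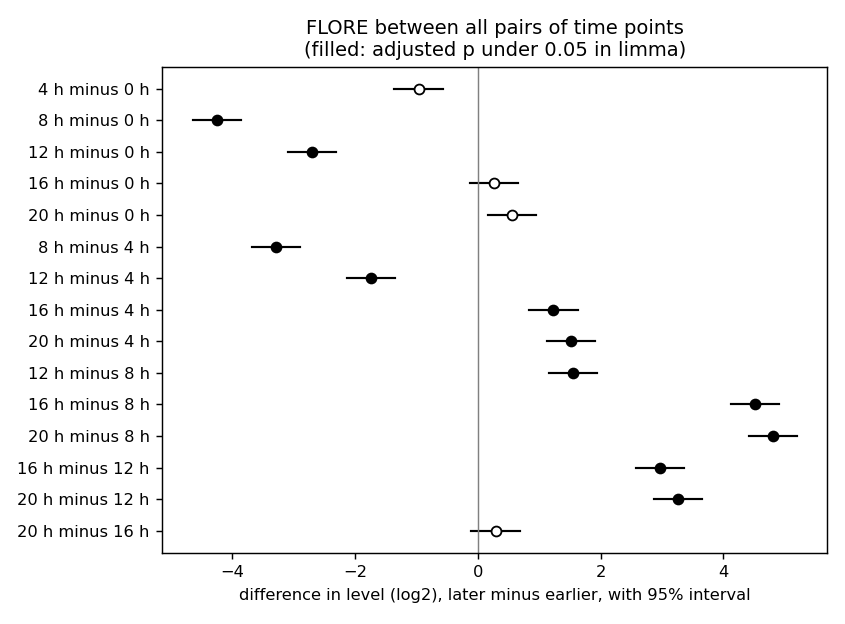
Difference in FLORE level (log2, CUST_9013) for each of the 15 pairs of time points, later minus earlier, with the 95% interval of limma's moderated fit; filled points passed an adjusted p of 0.05 over all transcripts. The 4 open points are the 3 pairs among 16, 20 and 0 h and the pair of 4 h and 0 h.

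The 3 probes served as repeated readings of the same RNA on each array. Their levels correlated with r between 0.997 and 1.00 over the 12 arrays, which the probes share. Each of the 3 passed the F test over time in the probe fit (adjusted p = 4.5e-06), where 21.5% of the probes tested passed. The difference between 20 h and 8 h was 4.81 for CUST_9011, 4.96 for CUST_9012 and 4.81 for CUST_9013.

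Between CUST_9013 and CUST_9012 a small difference changed with time, over all arrays and within slide 2 alone. CUST_9013 minus CUST_9012, read within each array, averaged -0.05 for the 0 h arrays, 0.08 for 4 h, 0.15 for 8 h, 0.19 for 12 h, 0.02 for 16 h and -0.01 for 20 h. The SD within a time point was 0.035 for this pair, and the values were highest at 8 h and 12 h, where FLORE itself was lowest. An exact permutation test over all 10395 ways to pair the 12 arrays gave p = 0.00096 for this pair (0.0029 adjusted over the 3 pairs). Within the 8 arrays of slide 2 alone the range was 0.21 and the exact permutation p = 0.0095, which is the smallest these arrays allow. The comparison within slide 2 was chosen after seeing the data and uses part of the same arrays.

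CUST_9012 minus CUST_9011 ran from 0.44 at 8 h to 0.81 at 4 h (exact permutation p = 0.021, adjusted 0.021). CUST_9013 minus CUST_9011 ran from 0.52 at 16 h to 0.89 at 4 h (exact permutation p = 0.014, adjusted 0.021). On the log2 scale these ranges of 0.25 to 0.37 are small beside the range of 4.81 of FLORE itself. For CUST_9012 minus CUST_9011 the p lay above 0.05, at 0.054 to 0.092, without any 1 of the 4 arrays of 4 h and 8 h. Within slide 2 alone neither difference from CUST_9011 passed, with an exact permutation p = 0.34 for CUST_9012 and 0.14 for CUST_9013, so the calls of these 2 pairs rest on fits that include slide 1. Whether the probes read different isoforms was not tested.

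**Figure D3:**
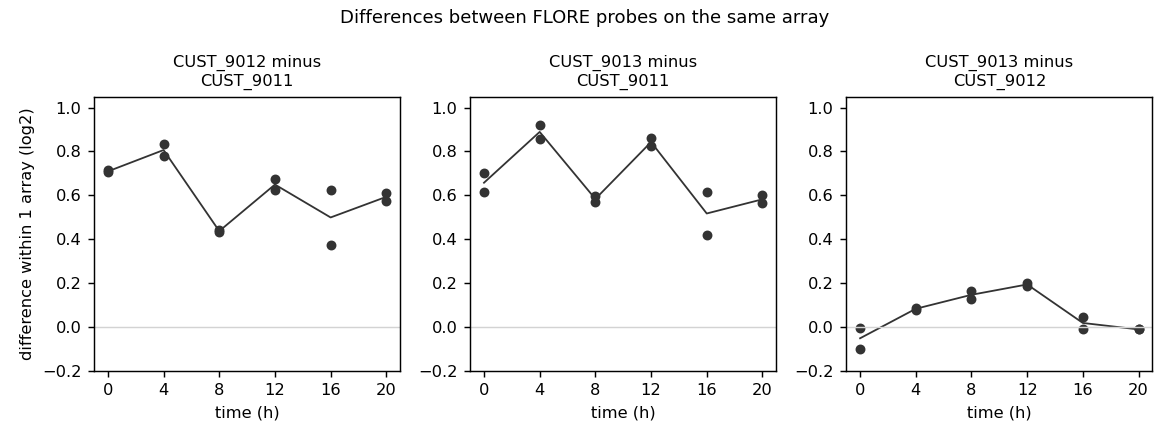
Difference between 2 FLORE probes on the same array (log2, points are arrays, the line joins the means of the 6 time points), for the 3 pairs of probes. The difference between CUST_9013 and CUST_9012 is largest at 12 h (0.19), and both differences from CUST_9011 are largest at 4 h (0.81 and 0.89).

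CCA1 (AT2G46830) and LHY (AT1G01060), MYB transcription factors of the morning arm of the clock, served as phase references. CCA1 had levels of 0.74 and 0.95 at 0 h, 6.52 and 6.43 at 4 h, and 6.55 and 6.54 at 8 h. Its levels were 4.99 and 4.50 at 12 h, 0.36 and 0.32 at 16 h, and -0.76 and -0.70 at 20 h. CCA1 was thus high at 4 h and 8 h and lowest at 20 h, where FLORE was highest.

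LHY had levels of 4.20 and 3.98 at 0 h, 8.01 and 8.01 at 4 h, and 8.29 and 8.13 at 8 h. It stood at 4.73 and 4.98 at 12 h, 0.69 and 0.72 at 16 h, and 0.22 and 0.00 at 20 h. Both references are usually at their highest around dawn, and here their highest means were at 8 h. The labels do not say how 0 h relates to the time at which the lamps came on.

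The highest and lowest means of FLORE and of both references fell at 8 h and 20 h, with the order reversed, as in a mirror image. Not all of these extremes were set apart from their neighbours. The difference of 8 h minus 4 h was 0.07 for CCA1 and 0.20 for LHY (limma adjusted p = 0.92 and 0.68). For 20 h minus 16 h it was 0.29 for FLORE, -0.59 for LHY and -1.07 for CCA1 (limma adjusted p = 0.27, 0.087 and 0.025). At 4 h the mirror image did not hold: CCA1 was already within 0.07 of its 8 h level, while FLORE was 3.29 above its own. At 0 h, FLORE and LHY were both well above their lowest means, by 4.25 and 3.98 on the log2 scale. These differences at 4 h and 0 h all cross the slides, so slide and time cannot be told apart in them. Over the 12 arrays, which share their scaling, FLORE correlated with CCA1 at a Pearson r of -0.82 and with LHY at -0.75, and Spearman's rho was -0.93 for each. Over the 8 arrays of slide 2 alone the Pearson r was -0.99 with either gene. Slide 2 holds only 8, 12, 16 and 20 h, over which the FLORE means only rose and those of both genes only fell. Such courses give a strongly negative r, so it cannot say where a mirror image fails. The time points of slide 1 are 0 h and 4 h. Counted from the lowest Pearson r with FLORE among the 3301 other transcripts tested, CCA1 ranked 14 and LHY 43.

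A cosine of 24 h period gave FLORE a fitted peak at 20.7 ± 0.47 h (SE) and a peak-to-trough distance of 4.59 ± 0.56 on the log2 scale. limma's moderated F test of the cosine gave an adjusted p = 0.0032, and 4.57% of transcripts passed it. By the same fit CCA1 peaked at 7.40 ± 0.22 h and LHY at 6.33 ± 0.10 h. The peak of FLORE thus lay 13.3 h after that of CCA1 and 14.4 h after that of LHY.

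The fitted hour depended on the setting. With array weights, and without both dark 16 h arrays, the peak of FLORE lay at 21.5 h. Settings that deal with slide also change the part of 0 h and 4 h, the only time points of slide 1. Slide and time cannot be told apart in them. With a term for slide beside the cosine the peak of FLORE moved to 18.8 ± 0.65 h, and within slide 2 alone to 18.9 ± 0.36 h. It then lay 11.2 h and 11.4 h after CCA1 and 12.2 h and 12.4 h after LHY. By probe, the peak of the fit over all arrays lay at 20.6 h for CUST_9011, 20.8 h for CUST_9012 and 20.7 h for CUST_9013, and all 3 passed the cosine, as did 6.53% of the probes tested.

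Over all 12 arrays, without a term for slide, the means of FLORE did not follow a smooth cosine. The means lay 0.98 above the fitted curve at 4 h and 0.69 above it at 16 h. They lay below it by 0.81 at 8 h, 0.52 at 20 h and 0.32 at 0 h (mean minus fitted -0.81, -0.52 and -0.32). Only at 12 h did the curve pass within 0.03 of the mean. The fall between 4 h and 8 h was thus steeper than the curve, and the level from 16 h to 0 h was flatter. Both stretches cross the slides, so slide and time cannot be told apart in them, and the part of slide in this misfit was not tested. The series covers 1 cycle, and whether the course repeats was not tested.

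**Figure D4:**
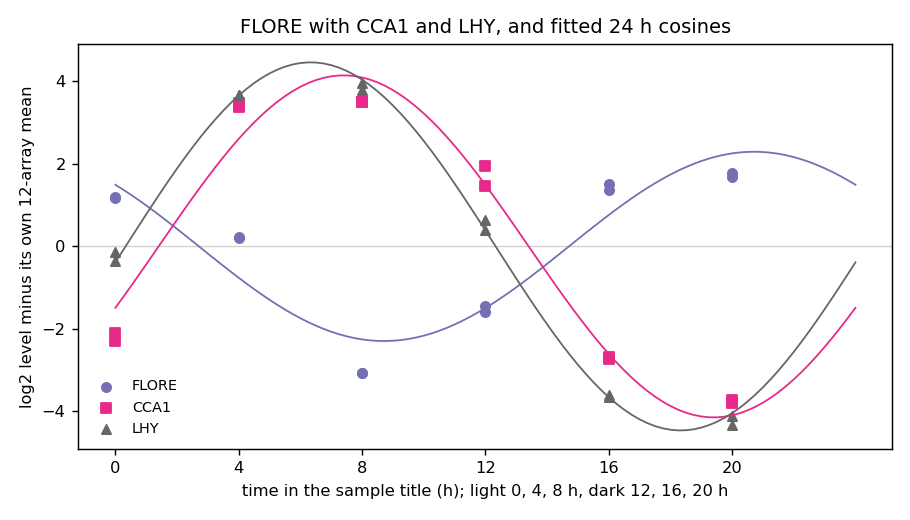
Levels of FLORE (CUST_9013), CCA1 and LHY on each array, each minus its own mean over the 12 arrays (log2), against the hour in the sample title, with the fitted cosine of 24 h period as a line. FLORE is lowest at 8 h where CCA1 and LHY are highest, and its point at 4 h lies 0.98 above the fitted line.

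The other clock genes measured are set beside FLORE by the cosine over all 12 arrays, without a term for slide. Of the 13 clock genes listed, 8 have probes. All 8 passed the F test over time, against 14.7% of all transcripts, and 6 passed the cosine, against 4.57%. Fitted peaks ran from 6.33 h for LHY to 20.1 h for TOC1. PRR9 peaked 9.92 h before FLORE, PRR7 7.64 h and PRR3 2.97 h before it. These genes belong to the pseudo-response regulator family, of which some members repress CCA1 and LHY. TOC1, another member of that family and the evening partner of CCA1 and LHY in the clock, peaked 0.65 h before FLORE, with an SE of 0.58 h on its own peak, and this difference was not tested. Neither CHE nor PRR5 passed the cosine (adjusted p = 0.085 and 0.17). In the step from 4 h to 8 h, where FLORE fell, 2 of the 8 clock genes were called higher (0.757% of all transcripts) and 3 lower (0.515%). In the step from 12 h to 16 h, where FLORE rose, 3 were called higher (6.15% of all transcripts) and 3 lower (3.33%).

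The likeness of 3301 transcripts to FLORE was measured by Pearson r over the 12 arrays. The 8 most like it were taken from the 582 annotated transcripts, and those with only a TU code were ranked apart. These were picked for their likeness, so their levels are a description with no test. TOC1 came first with r = 0.97, and its 3 probes gave 0.97 each. Its levels were 4.86 and 4.71 at 0 h, 4.12 and 4.17 at 4 h, and 2.35 and 2.25 at 8 h. Later they were 3.01 and 3.14 at 12 h, 5.81 and 5.73 at 16 h, and 5.27 and 5.30 at 20 h. Its lowest time point was that of FLORE. Under the scaling used here its mean at 20 h was below that at 16 h, while that of FLORE was above. The step of FLORE from 16 h to 20 h did not pass (limma adjusted p = 0.27). Its size ran from 0.07 with quantile normalization to 1.26 with scaling on all probes, so this contrast with TOC1 depends on the scaling and was not tested. The range of FLORE was 4.81 and that of TOC1 3.47 (log2).

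AT4G13505, an lncRNA locus, followed with r = 0.95 and a range of 1.32. ABI5, a bZIP transcription factor of abscisic acid signalling, had r = 0.95 and a range of 2.55. Its levels were 1.62 and 1.57 at 0 h, 0.92 and 0.95 at 4 h, and -0.21 and -0.12 at 8 h. They were 0.23 and 0.40 at 12 h, 2.44 and 2.34 at 16 h, and 2.07 and 1.82 at 20 h. ABI5 thus shared with FLORE the low point at 8 h and the rise between 12 h and 16 h.

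AT5G01215.1 and AT5G01215.2, isoform names of 1 lncRNA locus, had r = 0.93 and 0.92. The others were AT2G42388 (r = 0.89, with 1 spot left out as an outlier), AT3G44798 (r = 0.88) and AT2G36307 (r = 0.85). The gene table lists these loci as ncRNA, the last under the name ZPR4. Whether they code for a protein was not tested. Not every probe of these transcripts followed FLORE as closely. For 4 of the 8 transcripts all probes had r above 0.8, and the lowest probe gave 0.71 for AT5G01215.2, 0.39 for AT2G42388, 0.51 for AT3G44798 and 0.76 for AT2G36307. The course of AT3G44798 did not itself pass the F test over time (limma adjusted p = 0.23). Of the 8 transcripts, all were highest at 16 or 20 h, and 7 were lowest at 8 h. Of the 8, 6 belong to loci listed as lncRNA or ncRNA, as do 61.0% of the 582 annotated transcripts ranked. Of these 6, 3 overlap a protein-coding gene in the gene table as FLORE does, and 2 of the 3 are isoform names of AT5G01215. Among all non-coding transcripts ranked, 62.0% overlap one. Among transcripts with only a TU code, AT4TU003040 and AT5TU052370 were most like FLORE, with r = 0.90 and 0.87.

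At the other end of the ranking, the 8 annotated transcripts most opposite to FLORE were all highest at 8 or 12 h, and 5 were lowest at 20 h. They had r between -0.88 and -0.82 and held 4 non-coding loci, AT1G33415, AT2G43375, AT2G07213 and AT4G20362, of which all but AT2G43375 overlap a protein-coding gene. The precursor MIR841 had r = -0.85. For 4 of the 8 transcripts all probes had r below -0.7, and the weakest probe gave -0.48 for AT1G33415, -0.44 for AT2G43375, -0.04 for MIR841 and -0.51 for PHYB. The courses of AT1G33415 and AT2G07213 did not themselves pass the F test over time (limma adjusted p = 0.14 and 0.054). CCA1 was among the 8. PHYB, the red light photoreceptor phytochrome B, had r = -0.83 and fell short of CCA1 in range, with 1.74 against 7.27. PIF5, a bHLH factor that interacts with phytochromes and is listed as PIL6, had r = -0.83 and a range of 2.43. Its mean was highest at 12 h (6.25), next at 8 h (6.16), and lowest at 0 h (3.82) and 20 h (3.87). Among TU codes, AT4TU026320 and AT3TU001490 were most opposite, with r = -0.93 and -0.87, and their weakest probes gave -0.41 each.

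**Figure D5:**
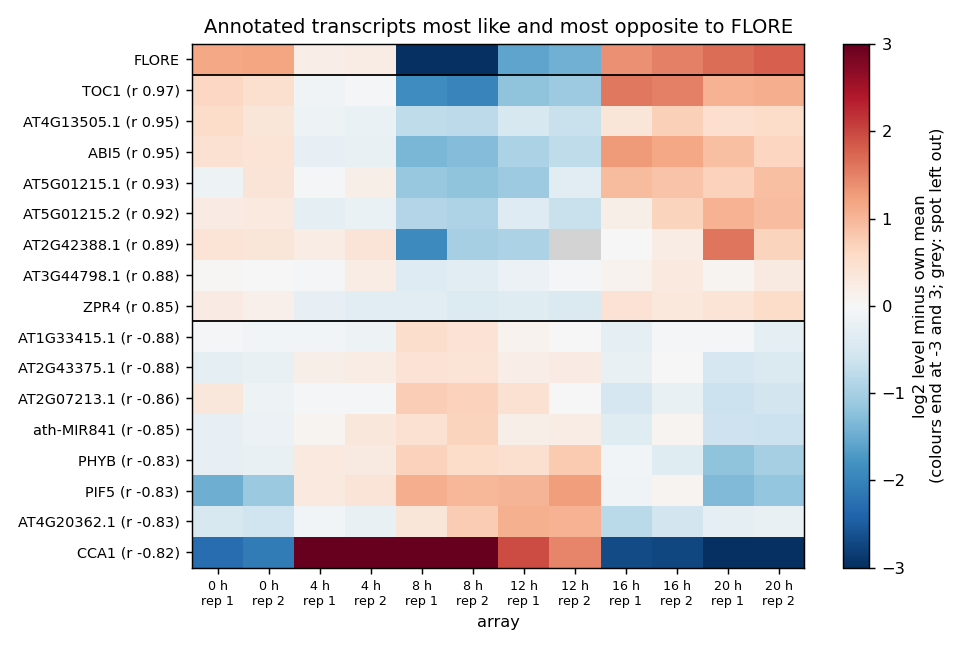
Levels on the 12 arrays, each transcript minus its own mean (log2, colour), for FLORE, the 8 annotated transcripts most like it and the 8 most opposite, with Pearson r over the 12 arrays beside each name. The 8 most like FLORE are blue at 8 h and the 8 most opposite are red there; ranges differ, from 0.57 for AT3G44798 to 7.27 for CCA1.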

How the data were processed

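Per the file headers, the authors scanned the arrays and quantified them with Agilent Feature Extraction 10.5.1.1. The deposited array files hold the intensity of each spot, with marks for spots well above background, saturated or outlying. The deposited series table holds log2 values, made by a method not given in the sources used here. Each array received 0.5 µg of RNA labelled with Cy3, as the labels' protocols state. The number of arrays limits the precision.

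Control spots (536) and outlier spots were left out. Each transcript was read from its brightest probe and tested where both arrays of at least 1 time point marked it as well above background (3302 of 5154 names). The fits used limma 3.58.1 (R 4.3.3), with p-values adjusted by Benjamini-Hochberg over all transcripts, and were tested on simulated data. Normexp (offset 50) used the median spot signal in place of the mean. The gene table is TAIR10.1 and the array headers name an older build, so no coordinates are given. Named transcripts are FLORE, CCA1, LHY, the gene lists, and the 8 annotated and 2 TU-coded transcripts highest and lowest in correlation with FLORE. The members, lists and tests were chosen with earlier results of these data known.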

Additional observations from a re-analysis of the deposited data

How the results depend on the processing

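The calls for the F test over time, the cosine and the steps from 4 h to 8 h and from 12 h to 16 h held under every alternative run, with the difference between 20 h and 8 h between 4.43 and 4.89. The step from 8 h to 12 h lost its call with scaling on all probes (1.74) and within slide 2 alone (1.55), where fewer arrays enter. The step from 0 h to 4 h passed under normexp with quantile normalization (-0.96), with only probes detected on all 12 arrays (-0.96), with the mean of all probes (-1.08), with array weights (-0.96), with p adjusted over all probes (-0.96) and without both dark 16 h arrays (-0.96). The difference of 20 h minus 0 h passed under normexp (0.72), with only probes detected on all arrays (0.56) and with array weights (0.56), and 20 h minus 16 h passed under normexp (0.27). The size of 20 h minus 16 h ran from 0.07 (quantile normalization) to 1.26 (scaling on all probes). The cause was not tested beyond the construction of these settings.

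The fitted peak moved to 21.5 h with array weights, 18.8 h beside a term for slide, 18.9 h within slide 2 and 21.5 h without both dark 16 h arrays. The hours after the CCA1 peak became 14.3, 11.2, 11.4 and 14.0, and after the LHY peak 15.2, 12.2, 12.4 and 15.1. Leaving out single arrays gave -0.97 to -0.95 for 0 h to 4 h, which passed without either dark 16 h array (adjusted p = 0.041), and 0.34 to 0.43 for the range of CUST_9012 minus CUST_9011. For an array left alone at its time point, the spread of the other time points was assumed. With the replicate number as a block, no call changed: the step from 0 h to 4 h had an adjusted p = 0.075. Deviations of arrays with the same replicate number correlated weakly between time points (-0.10 to 0.19), above 0.1 in 5 of 15 pairs of time points. Such correlations cannot settle whether replicate numbers mark arrays handled together. Steps between the slides have no value with slide as a block. By Spearman correlation 5 of the 8 most like and 3 of the 8 most opposite transcripts were the same, and over the 6 time point means 7 and 4. Some alternatives were chosen after seeing the data. Among them, all 3 probe pairs were compared within slide 2 alone. There the range of CUST_9013 minus CUST_9012 was 0.21, and this pair passed. The range of CUST_9012 minus CUST_9011 was 0.21 and that of CUST_9013 minus CUST_9011 was 0.33, and neither passed. Also chosen in this way were 4 other scalings for the correlations with FLORE. Under them r was 0.97 to 0.98 for TOC1 and 0.93 to 0.94 for ABI5. It was -0.82 to -0.77 for CCA1 and -0.75 to -0.69 for LHY, weakest for both with scaling on all probes.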
